A study of Saccharomyces cerevisiae with 8 samples.

Results

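The mitochondrial ribosome of budding yeast makes the few proteins encoded by mitochondrial DNA, most of them subunits of the respiratory chain and the ATP synthase. Its ribosomal RNAs come from mitochondrial DNA, whereas nearly all of its proteins are encoded in the nucleus, translated in the cytosol and imported. The results below concern 60 of these nuclear genes, of the MRP, MRPL, MRPS and RSM series, which were found by their systematic names in a table of 7660 annotated features. The genes occupied 61 rows of that table, 36 of them for proteins of the large subunit and 25 for the 24 proteins of the small subunit. Of the 60 genes, 58 had a row of their own. MRPL19 (YNL185C) and MRPL39 (YML009C) were counted only in rows that they share with a neighbouring open reading frame, written MRPL19/YNL184C and YML009C-A/MRPL39, and RSM23 had its own row and a row shared with CWC23.

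Nab2 is a nuclear protein that binds poly(A) tails of newly made RNA. In the Nab2 anchor-away strain Y3284 (tor1-1, fpr1 deleted, RPL13A-2xFKBP12, NAB2-FRB), rapamycin ties the FRB tag of Nab2 to the FKBP12 tag of the ribosomal protein Rpl13a, which carries Nab2 out of the nucleus. Cells of Y3284 were harvested before rapamycin (0 min) and 15 or 30 min after its addition to 1 µg/ml. The control strain Y2615 carries the same tor1-1, fpr1 and RPL13A alleles without the FRB tag on Nab2, and was harvested only at 30 min of the same dose. All cultures grew at 30 °C in YPAD, the tor1-1 allele and the loss of FPR1 are present in every library, and each of the 4 groups held 2 biological replicates. The 4 libraries of Y3284 after rapamycin are called anchored below, and the 4 libraries of Y3284 at 0 min and of the control are called unanchored.

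Some facts about the libraries touch every result. Total counts ran between 4832948 and 17023022 per library, and the members took 0.142% to 0.282% of them, or 9272 to 41526 counts. In 15 min replicate 1, 30 min replicate 2 and control replicate 1 the share of features at 0 counts was 24.4%, 28.2% and 28.2%, against 9.18% to 15.4% in the other 5 libraries. Genes specific to alpha cells summed to 1215 to 2866 CPM in the 6 libraries of Y3284 and to 80.4 and 85.0 CPM in the control, whereas genes specific to a cells summed to 11.3 to 40.6 CPM in Y3284 and to 304 and 356 CPM in the control. The strains thus differed in mating type as well as in the tag, and in any comparison with the control these 2 differences cannot be told apart. Within Y3284, libraries after rapamycin differ from those at 0 min in drug and elapsed time as well as in anchoring. With no control library at 0 or 15 min, these cannot be told apart in the comparisons with 0 min. FPR1, deleted in both strains, had between 0 and 31 counts in each library. The libraries also differed in how a gene's level depended on its GC content: over single-gene open reading frames the rank correlation of a gene's deviation from its own mean with its GC content was -0.49 in 30 min replicate 1 and -0.41 in 0 min replicate 2, against 0.40 in 0 min replicate 1 and 0.53 in control replicate 2. CPM are counts per 1000000 of the library total after TMM scaling, which sets the bulk of features equal between libraries. NAB2 itself had 264 and 211 CPM before rapamycin, 164 and 174 CPM after 15 min, 203 and 228 CPM after 30 min and 120 and 184 CPM in control cells, and its mRNA does not measure where the protein is.

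Yeast mRNAs for mitochondrial proteins are bound by Puf3, a Pumilio-family protein that recognises a short motif downstream of the stop codon, written here as TGTANATA in DNA letters, and Puf3 is known for controlling the decay and translation of these mRNAs. The first match to TGTANATA on the coding strand within 200 bases after the stop codon was looked up in the R64 genome for every member and for 6002 protein-coding genes. The matches of the 11 members that passed the test in at least 1 comparison are shown, because they are the members the later results turn on, with 8 bases on either side. The 8 capitals mark the match, and the sequences read 5′ to 3′ on the coding strand.
RSM7 (chrX:638195-638218, minus strand): aacttgccTGTACATAaacacatt
MRPS12 (chrXIV:694272-694295, minus strand): caacctttTGTAAATAgcaatgac
RSM19 (chrXIV:695027-695050, minus strand): ggatctagTGTATATAgatttcta
MRP1 (chrIV:1170186-1170209, plus strand): gtagtctcTGTAAATAtataaagt
MRPS16 (chrXVI:528884-528907, minus strand): gtatatgtTGTATATAtgttttac
MRPL33 (chrXIII:842252-842275, plus strand): cttatataTGTATATAgtattatt
MRPL37 (chrII:741641-741664, plus strand): ggtatcctTGTAAATAaatatgtg
MRPL38 (chrXI:131138-131161, plus strand): taaccaccTGTATATAttgcttaa
MRPL23 (chrXV:612538-612561, plus strand): tcaatccaTGTATATAtttatctg
MRPL1 (chrIV:682671-682694, minus strand): tttttaatTGTATATAtatatata
MRPL10 (chrXIV:103078-103101, minus strand): ttctcactTGTACATAccttaaga

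All 60 members had such a match, against 844 of 6002 protein-coding genes (14.1%). The first base of the match lay between 8 and 139 bases after the stop codon in the members, with a median of 51.5 bases, and within 100 bases in 56 of them (93.3%). In the 784 other genes with a match the range was 1 to 193 bases and the median 60 bases, and 74.0% of the matches began within 100 bases. The base at the position written N was A in 31 members, T in 17, C in 11 and G in 1. A C 2 bases before the match, a base that Puf3 is known to prefer there, was present in 41 of the 60 members (68.3%) and in 202 of the 784 other genes with a match (25.8%). Of the 11 sequences above, RSM7, MRPL23, MRPL37, MRPL38 and MRPL10 have it. In other genes of mitochondrial translation the motif was also common, with 51 of 61 genes (83.6%), among them 16 of 17 genes of mitochondrial aminoacyl-tRNA synthesis. The hexamer AATTTT, searched on both strands in the 300 bases before the start codon, was present in 24 of 60 members (40.0%) and in 3245 of 6002 protein-coding genes (54.1%). A match is a description of these letters and does not show binding.

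**Figure D1:**
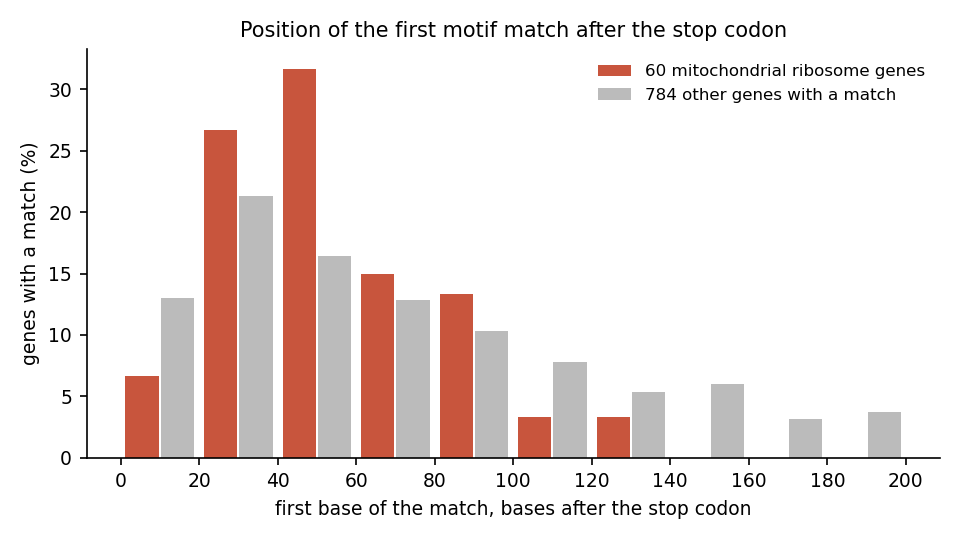
Position of the first motif match after the stop codon, in bases (x axis, bins of 20 bases), as the percentage of genes with a match (y axis), for the 60 members and for 784 other protein-coding genes. The members' matches lie between 8 and 139 bases after the stop codon, while those of the other genes reach 193 bases.

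Summed over all 61 rows, mitochondrial ribosome mRNA amounted to 2520 and 2501 CPM before rapamycin, 1784 and 1559 CPM after 15 min, 1494 and 1793 CPM after 30 min and 2613 and 2688 CPM in control cells. All 4 anchored libraries lay below all 4 unanchored libraries, and the 15 min and 30 min groups overlapped each other. The mean was 1672 ± 159 CPM at 15 min and 1644 ± 211 CPM at 30 min, against 2511 ± 13.6 CPM at 0 min and 2651 ± 53.5 CPM in the control (SD, n = 2 each). The ratio of means was 0.666 for 15 over 0 min, 0.655 for 30 over 0 min and 0.62 for 30 min over the control. Between 30 and 15 min it was 0.983, and between the control and 0 min 1.06. Fewer mitochondrial ribosome mRNAs per cell and more of other RNAs give the same share, and the values cannot tell these apart. As a share of all counts, without TMM scaling, the members took 0.234% and 0.282% before rapamycin, 0.164% and 0.142% after 15 min, 0.189% and 0.192% after 30 min and 0.257% and 0.23% in control cells, and again the 4 anchored libraries were the lowest.

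Large-subunit rows summed to 1440 and 1444 CPM before rapamycin, 916 and 858 CPM after 15 min, 814 and 1094 CPM after 30 min and 1467 and 1458 CPM in control cells. Small-subunit rows summed to 1080 and 1057 CPM before rapamycin, 868 and 701 CPM after 15 min, 680 and 699 CPM after 30 min and 1146 and 1230 CPM in control cells. In either subunit every anchored library was below every unanchored one. No set test was made, because the members were chosen with earlier results of these data known.

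**Figure D2:**
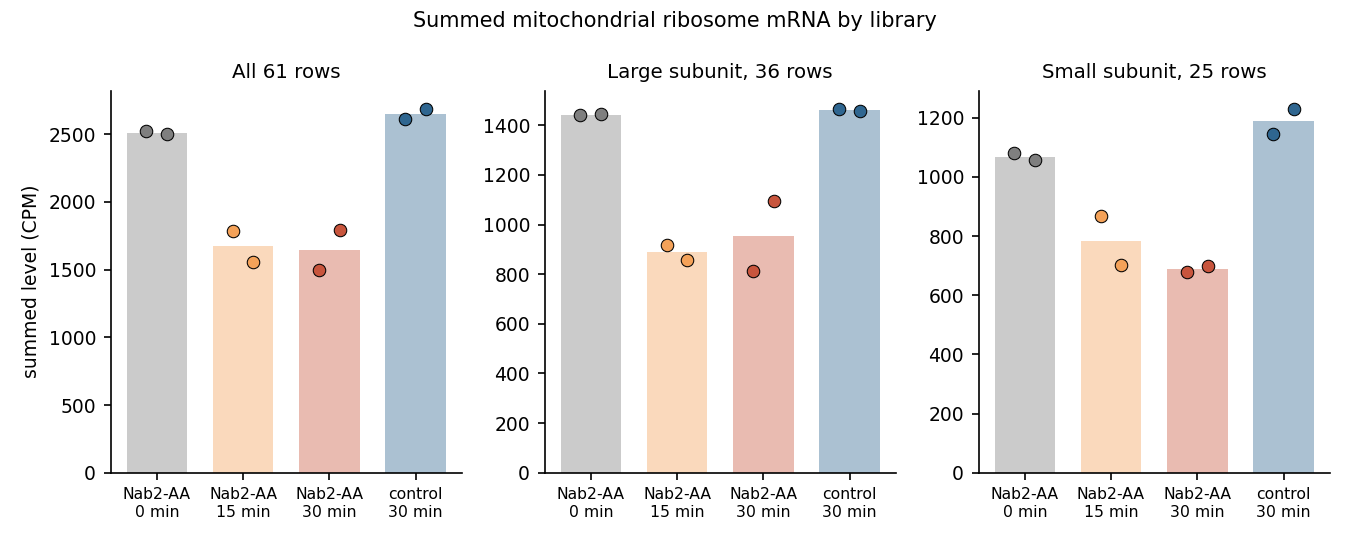
Summed level of the member rows in CPM (y axis) in each library, for all 61 rows, the 36 large-subunit rows and the 25 small-subunit rows. Bars are group means and points are the 2 libraries of each group, from left to right 0, 15 and 30 min of rapamycin in the Nab2 anchor-away strain and 30 min in the control. The 4 libraries at 15 and 30 min, at 1494 to 1793 CPM over all rows, are below the other 4, at 2501 to 2688 CPM.

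Of the 61 rows, 58 passed the filter on low counts and were tested with edgeR over all 6191 tested features. MRPL24 (bL28m), MRPL25 (mL59) and MRPS17 (uS17m) did not pass. MRPL24 had 0 and 4 counts before rapamycin, 9 and 1 after 15 min, 8 and 0 after 30 min and 0 and 0 in control cells. MRPL25 had 6 and 12 counts before rapamycin, 2 and 0 after 15 min, 10 and 0 after 30 min and 0 and 4 in control cells. MRPS17 had 1 and 12 counts before rapamycin, 5 and 0 after 15 min, 42 and 0 after 30 min and 0 and 3 in control cells. These 3 genes were near or at 0 in most libraries, and no difference was detectable at this depth.

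Levels of the 58 rows that hold a single gene, averaged over the 8 libraries and divided by gene length, spread from 0.342 CPM per kb for MRPL24 to 173 CPM per kb for RSM19, with a median of 39.2 CPM per kb. The medians of the subunits were 38.3 CPM per kb for the large and 39.5 CPM per kb for the small subunit. RSM19 (173 CPM per kb) and MRPS12 (144 CPM per kb) led the small subunit, and MRPL33 (129 CPM per kb) and MRPL37 (127 CPM per kb) the large one. These 4 genes are 261 to 462 bases long, and in each of them the group means per kb were lower at 15 and 30 min than at 0 min and in the control. MRPS17 was lowest in the small subunit at 0.929 CPM per kb. MRPL44 is the single member with an intron, and its intron row had 0 counts in all 8 libraries.

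The 58 tested rows had a median log2 fold change of -0.73 for 15 over 0 min, with 48 rows below 0, against a median of -0.06 over all 6191 features. For 30 over 0 min the median was -0.59 with 46 rows below 0 (all features -0.05), and for 30 min over the control it was -0.56 with 41 rows below 0 (all features 0.06). Between 30 and 15 min the median was 0.09 with 27 rows below 0 (all features -0.04), and between the control and 0 min it was -0.01 with 29 rows below 0 (all features -0.08). Taking the 4 anchored against the 4 unanchored libraries, the median was -0.56 with 46 rows below 0 (all features 0.00). For 15 over 0 min the large subunit had a median of -0.83 and the small subunit -0.58, and for 30 over 0 min they were at -0.60 and -0.59. The difference between the subunits was not tested.

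Other short open reading frames had negative medians too. The members' median length was 744 bases against 1299 bases for other single-gene open reading frames, and the median GC content was 39.7% in both. The 1701 other open reading frames under 1000 bases had medians of -0.24 for 15 over 0 min, -0.41 for 30 over 0 min and -0.41 against the control, beside -0.05, 0.02 and 0.11 for the 3152 longer ones. With each library's dependence on GC content removed, over 55 member rows, the members' medians in the same order were -0.59, -0.47 and -0.42. With GC content and length both removed they were -0.47, -0.17 and -0.25, and -0.45 for anchored over unanchored libraries. Below 0 in these 4 comparisons were then 43, 31, 32 and 35 of the 55 member rows (78.2%, 56.4%, 58.2% and 63.6%). Of all 4908 single-gene rows in that fit, 49.6%, 46.2%, 48.5% and 49.3% were below 0. Both corrections were added after the data had been seen. Within the members the rank correlation of the log2 fold change with GC content, a description over 55 genes of the same libraries, was -0.31 for 15 over 0 min and -0.55 for 30 min over the control. In the 4853 other single-gene open reading frames it was -0.05 and -0.41. The correlation with length was 0.47 and 0.20 in the members and 0.17 and 0.23 in the other reading frames, in the same order.

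Single members that passed the test did so as falls in every case. At 15 min no member passed in either direction, where the share of all features called was 0.0162% for falls and 0.145% for rises, and 12 of 58 members, beside 258 of 6191 features, were lower at an unadjusted p under 0.05. DESeq2 called 2 members in this comparison and 67 of all features. At 30 over 0 min, RSM7 and MRPS12 fell (2 of 58, or 3.45%, beside 2.26% of all features), and none rose (0.501% of all features). At 30 min over the control, RSM7, RSM19, MRPS12 and MRP1 fell (4 of 58, or 6.9%, beside 4.76%), and none rose (1.31%). Both shares are close to that of all features. Between 30 and 15 min (falls 0.42%, rises 0.0323%) and between the control and 0 min (falls 0.0646%, rises 0.0162%) edgeR and DESeq2 called no member, while 2 and 0 members were lower at an unadjusted p under 0.05, beside 465 and 87 of all features. For anchored over unanchored libraries, 11 of 58 fell (19.0% beside 5.06%), and none rose (1.89%). Falls were also more common in other short genes. Of other single-gene open reading frames, 167 of 1701 under 1000 bases fell and 13 rose, and 58 of 445 under 500 bases fell and 4 rose. Of the 18 members under 500 bases, 7 fell. All 11 falls were among the 26 single-gene member rows above the members' median GC content, and 0 of the 29 at or below it fell. Of the 445 other single-gene open reading frames of 45% GC or more, 74 fell and 7 rose. The last comparison uses the libraries of the others again and is not a further experiment.

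The groups did not overlap for many more members than passed the test. In 33 of 58 rows (56.9%) both 15 min libraries were below both 0 min libraries, against 26.3% of all features. Both 30 min libraries were below both 0 min libraries in 30 rows (51.7%, against 27.7%) and below both control libraries in 28 rows (48.3%, against 24.2%). All 4 anchored libraries were below all 4 unanchored libraries in 21 rows (36.2%, against 8.88%), and in 0 rows were all 4 above. Short genes did so more often than all features. Of the 1701 other single-gene open reading frames under 1000 bases, 589, 708, 652 and 248 were lower in this way, in the same order. Of the 445 other ones of 45% GC or more, 138, 193, 240 and 63 were. The 21 rows are MRPL1, MRPL9, MRPL10, MRPL13, MRPL23, MRPL28, MRPL33, MRPL37, MRPL38 and YML009C-A/MRPL39 of the large subunit, and MRP1, MRP17, MRPS9, MRPS12, MRPS16, MRPS18, MRPS28, MRPS35, RSM7, RSM19 and RSM25 of the small subunit.

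**Figure D3:**
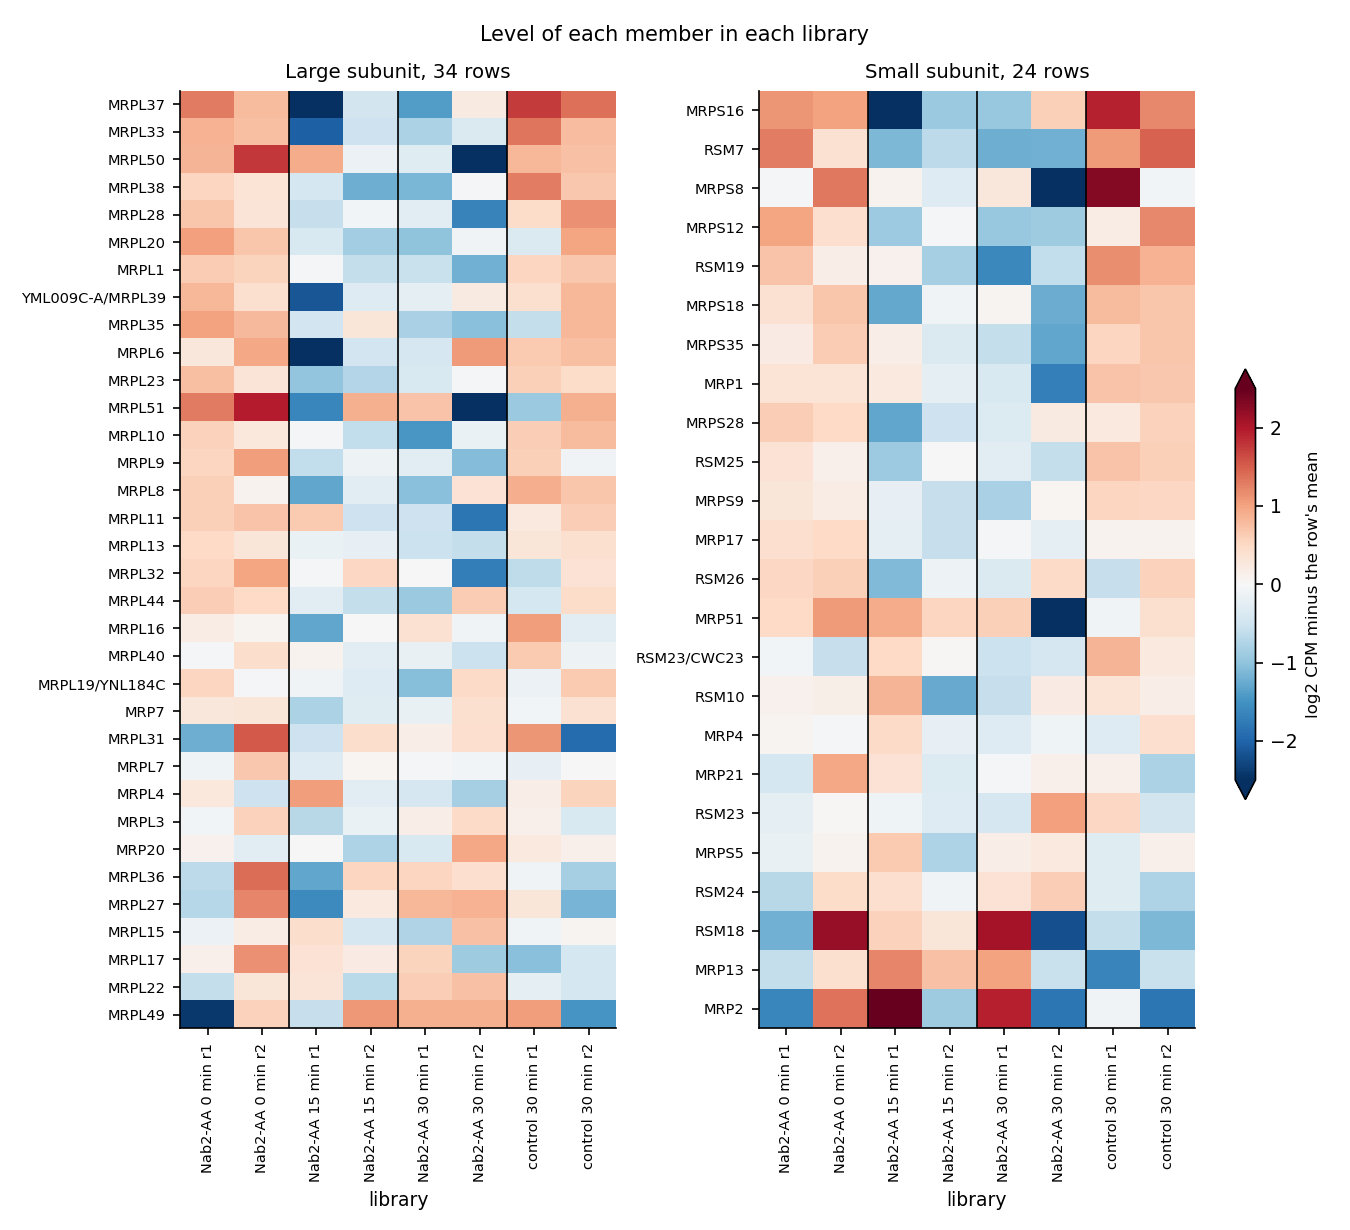
Level of each of the 58 tested rows in each library, as log2 of CPM plus 0.5 minus the row's mean over the 8 libraries (colour), with rows of each subunit ordered by their fold change between anchored and unanchored libraries. The columns at 15 and 30 min are mostly blue in the upper part of both panels, while the lower rows vary between replicates.

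Of the small subunit, 5 members passed the test at least once. RSM7 (YJR113C, uS7m; chromosome X, 638232 to 638975, minus strand, R64), the homologue of a bacterial protein of the small-subunit head, had 118 and 62.8 CPM before rapamycin, 21.7 and 30.1 CPM after 15 min, 20.4 and 20.7 CPM after 30 min and 101 and 134 CPM in control cells. The highest anchored library was at 30.1 CPM and the lowest unanchored one at 62.8 CPM. Its log2 fold change was -2.13 ± 0.42 for 30 over 0 min (SE, edgeR adjusted p = 0.0108) and -2.51 ± 0.42 for 30 min over the control (edgeR adjusted p = 0.00206). For 15 over 0 min it was -1.80 ± 0.41 (edgeR adjusted p = 0.11), the smallest p of any member there. RSM7 is the member with the highest GC content, 52.0%, and with GC content removed its fold change was -1.40 for 30 over 0 min (edgeR adjusted p = 0.0561), -1.50 for 30 min over the control (edgeR adjusted p = 0.031) and -1.47 for anchored over unanchored libraries (edgeR adjusted p = 0.00643). Without 0 min replicate 1 its adjusted p for 30 over 0 min was 0.363.

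MRPS12 (YNR036C, uS12m; chromosome XIV, 694361 to 694822, minus strand) is the homologue of the bacterial protein at the decoding site. It had 113 and 76.5 CPM before rapamycin, 30.1 and 55.9 CPM after 15 min, 29.6 and 30.6 CPM after 30 min and 65.2 and 133 CPM in control cells. Its log2 fold change was -1.66 ± 0.44 for 30 over 0 min (SE, edgeR adjusted p = 0.0498) and -1.72 ± 0.44 for 30 min over the control (edgeR adjusted p = 0.0251). The call for 30 over 0 min lies just under the threshold and was lost in 6 of the 8 fits that left out 1 library, with a highest adjusted p of 0.608 without 0 min replicate 1.

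RSM19 (YNR037C, uS19m; chromosome XIV, 695052 to 695327, minus strand), another protein of the head, is the upstream neighbour of MRPS12 on the same strand, with 229 bases between the coding regions. It had 66.6 and 45.1 CPM before rapamycin, 43.4 and 22.6 CPM after 15 min, 12.9 and 26.3 CPM after 30 min and 91.2 and 74.4 CPM in control cells. Its 30 min libraries lay below all 4 unanchored libraries, with a log2 fold change of -2.09 ± 0.49 over the control (SE, edgeR adjusted p = 0.0166) and of -1.52 ± 0.49 over 0 min (edgeR adjusted p = 0.111). The GC content of MRPS12 is 49.4% and that of RSM19 48.6%. With GC content removed, the fold changes over the control were -0.80 for MRPS12 (edgeR adjusted p = 0.236) and -1.36 for RSM19 (edgeR adjusted p = 0.128).

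MRP1 (YDR347W, mS43; chromosome IV, 1169178 to 1170143, plus strand), a mitochondria-specific protein related in sequence to manganese superoxide dismutase, had 91.2 and 91.3 CPM before rapamycin, 85.5 and 60.3 CPM after 15 min, 55.1 and 21.7 CPM after 30 min and 117 and 115 CPM in control cells. Both 15 min libraries were below both 0 min libraries, and both 30 min libraries were lower still. Its log2 fold change was -0.32 ± 0.40 for 15 over 0 min (SE, edgeR adjusted p = 1). It was -1.59 ± 0.41 for 30 min over the control (edgeR adjusted p = 0.0256), and between 30 and 15 min it was -0.92 ± 0.40 (edgeR adjusted p = 0.412). Its GC content is 41.4%, and with GC content removed the value over the control was -1.32 (edgeR adjusted p = 0.101). For anchored over unanchored libraries MRP1 was at -0.95 ± 0.28 (SE, edgeR adjusted p = 0.04998), just under the threshold. With GC content removed that value was -0.75 (edgeR adjusted p = 0.157). Without this correction it ran from -1.38 to -0.71 over the fits that left out 1 library. The call did not hold in all of those fits.

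MRPS16 (YPL013C, bS16m; chromosome XVI, 528985 to 529350, minus strand) had 35.6 and 32.9 CPM before rapamycin, 0.585 and 8.3 CPM after 15 min, 8.14 and 24.8 CPM after 30 min and 62.9 and 37.8 CPM in control cells. MRPS16 had its lowest mean at 15 min, where the 2 libraries differed more than 4-fold, and its 15 and 30 min libraries overlapped. It fell by 2.29 ± 0.62 on the log2 scale in anchored against unanchored libraries (SE, edgeR adjusted p = 0.039). It no longer passed in 5 of the 8 fits that left out 1 library, and the value was -3.70 without 15 min replicate 2. Its value for 15 over 0 min was -2.96 ± 0.91 (edgeR adjusted p = 0.367).

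Of the large subunit, 6 members fell in anchored against unanchored libraries, and none passed at 30 min against 0 min or the control. MRPL33 (YMR286W, uL30m; chromosome XIII, 841942 to 842202, plus strand), the homologue of bacterial L30, had 49.0 and 45.1 CPM before rapamycin, 6.09 and 18.5 CPM after 15 min, 15.3 and 20.7 CPM after 30 min and 68.6 and 45.8 CPM in control cells. The highest anchored library was at 20.7 CPM and the lowest unanchored one at 45.1 CPM. Its log2 fold change for anchored over unanchored libraries was -1.81 ± 0.40 (SE, edgeR adjusted p = 0.011), -1.56 with GC content removed (edgeR adjusted p = 0.0434) and -1.25 with GC content and length removed (edgeR adjusted p = 0.087).

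MRPL37 (YBR268W, mL54; chromosome II, 741299 to 741616, plus strand) had 63.97 and 44.99 CPM before rapamycin, 1.64 and 18.6 CPM after 15 min, 9.42 and 30.2 CPM after 30 min and 86.7 and 67.7 CPM in control cells. MRPL38 (YKL170W, uL14m; chromosome XI, 130634 to 131050, plus strand), a protein at the interface between the subunits, had 48.1 and 42.3 CPM before rapamycin, 24.2 and 14.0 CPM after 15 min, 14.7 and 32.3 CPM after 30 min and 80.6 and 52.8 CPM in control cells. In both genes every anchored library was below every unanchored one. For anchored over unanchored libraries MRPL37 fell by 2.21 ± 0.60 on the log2 scale (SE, edgeR adjusted p = 0.0489) and MRPL38 by 1.38 ± 0.37 (edgeR adjusted p = 0.0288). MRPL37 likewise no longer passed in 5 of those 8 fits, and its value was -3.48 without 15 min replicate 2.

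MRPL23 (YOR150W, uL13m; chromosome XV, 611999 to 612490, plus strand) had 87.3 and 65.2 CPM before rapamycin, 25.8 and 31.0 CPM after 15 min, 39.7 and 50.7 CPM after 30 min and 78.4 and 71.4 CPM in control cells. MRPL1 (YDR116C, uL1m; chromosome IV, 682724 to 683581, minus strand), the protein of the stalk at the tRNA exit site, had 65.9 and 62.8 CPM before rapamycin, 40.7 and 27.9 CPM after 15 min, 28.8 and 18.2 CPM after 30 min and 61.9 and 68.3 CPM in control cells. MRPL10 (YNL284C, uL15m; chromosome XIV, 103134 to 104102, minus strand) had 97.2 and 78.2 CPM before rapamycin, 63.4 and 42.2 CPM after 15 min, 23.2 and 57.2 CPM after 30 min and 99.8 and 112 CPM in control cells. The means of MRPL23 were lowest at 15 min and those of MRPL1 and MRPL10 at 30 min, but 30 and 15 min did not differ by the test in any of them (edgeR adjusted p = 0.59 for MRPL23, 0.746 for MRPL1 and 0.821 for MRPL10). For anchored over unanchored libraries MRPL23 fell by 1.08 ± 0.28, MRPL1 by 1.18 ± 0.31 and MRPL10 by 1.07 ± 0.30 on the log2 scale (SE, edgeR adjusted p = 0.0246, 0.0261 and 0.0363). Over the fits that left out 1 library, the values ran from -1.18 to -0.92, from -1.37 to -1.02 and from -1.47 to -0.81 in this order. None of MRPL23, MRPL1 and MRPL10 kept its call in all of those fits. With GC content removed, MRPL1 and MRPL10 did not pass (edgeR adjusted p = 0.0707 and 0.0825).

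**Figure D4:**
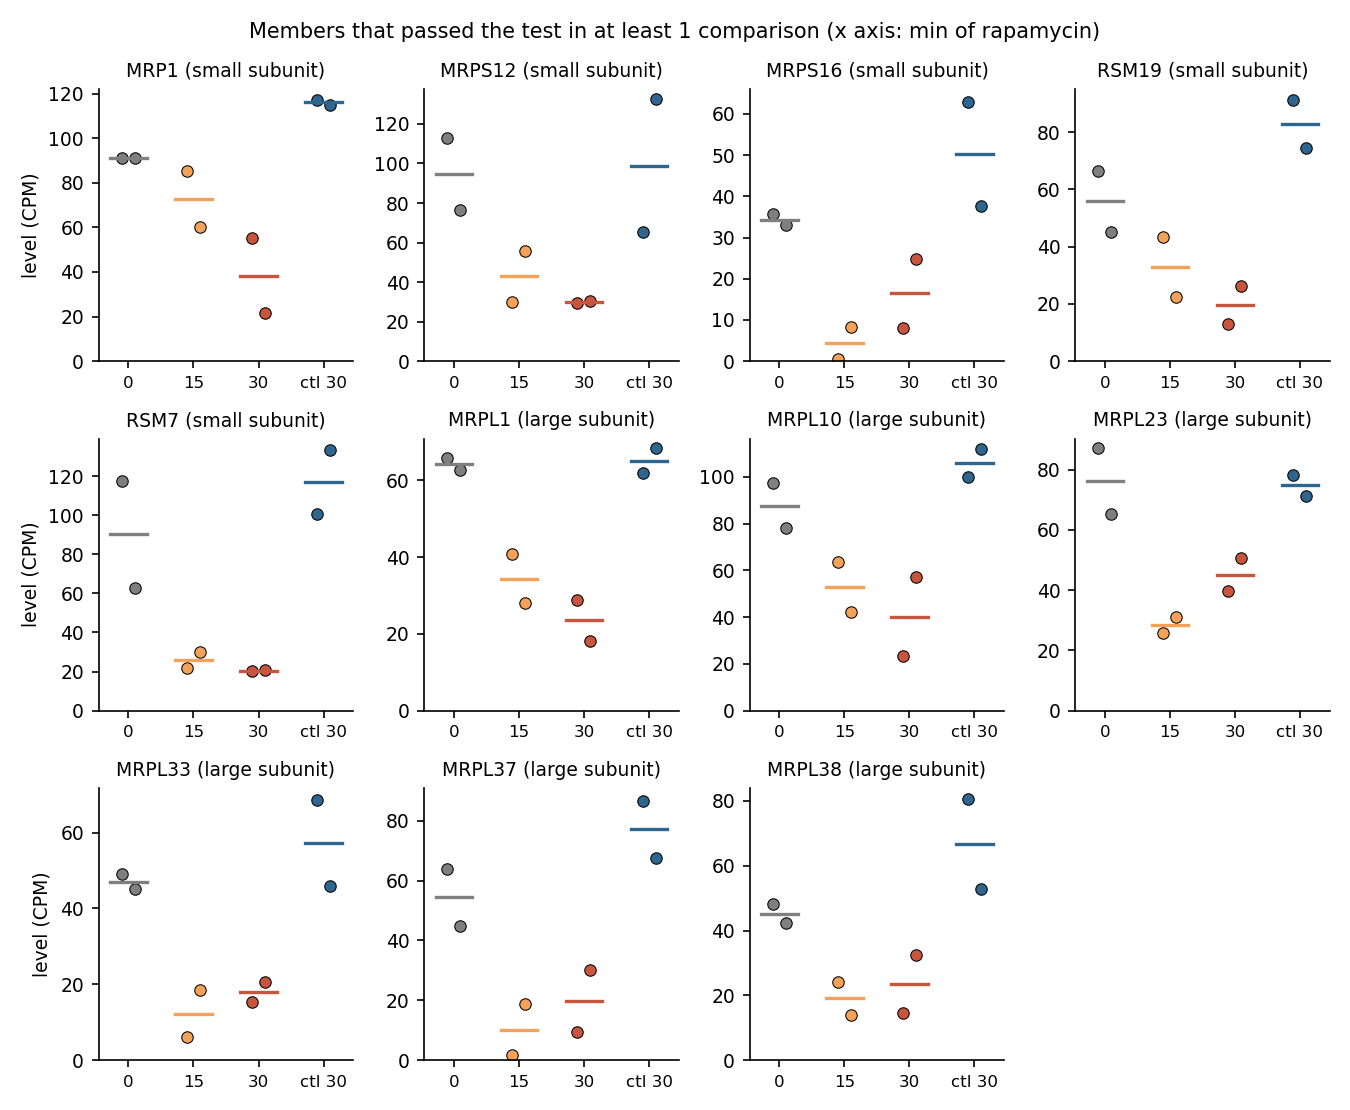
Level in CPM (y axis of each panel, from 0) of the 11 members that passed the test in at least 1 comparison, at 0, 15 and 30 min of rapamycin in the Nab2 anchor-away strain and at 30 min in the control (x axis). Points are the 2 libraries of each group and lines their means. In every panel the 4 libraries at 15 and 30 min are below the other 4, from 20.4 to 30.1 CPM against 62.8 to 134 CPM for RSM7.

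These calls for anchored over unanchored libraries depended on single libraries and on GC content. The count of 11 was 4 without 15 min replicate 1 or 0 min replicate 1 and 6 without 15 min replicate 2, control replicate 1 or control replicate 2, where the last 6 were 5 falls and 1 rise. With GC content removed, MRPL33, MRPL23 and RSM7 passed, and with GC content and length removed RSM7 alone did, at -1.48 (edgeR adjusted p = 0.00825). With the 3 libraries rich in zeros left out, 17 members passed. The calls over all features moved as well, with 430 as reported, 190 without 15 min replicate 1, 201 without 0 min replicate 1, 277 with GC content removed and 524 without the 3 libraries. The count of 2 for 30 over 0 min was 8 without 30 min replicate 1 (442 of all features, against 171 as reported), 1 without either 15 min replicate or control replicate 2, and 0 without 0 min replicate 1 (40 of all features). The count of 4 for 30 min over the control was 7 without either 30 min replicate (without replicate 2, 6 falls and 1 rise) and 2 without either control replicate. Over the control MRPS12 was at -1.05 without control replicate 2 and MRP1 at -2.42 without 30 min replicate 1. The count of 0 for 15 over 0 min was 2 without 15 min replicate 2 and 1 without 30 min replicate 2 or 0 min replicate 2, and that for 30 over 15 min was 3 without 30 min replicate 1 (282 of all features, against 28 as reported).

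The comparison of 15 with 0 min and that of 30 min with the control share no library, so the members' values can be set side by side. Of 58 rows, 37 (63.8%) were lower in both, against 1979 of 6191 features (32.0%), and 6 were higher in both. Below -1 on the log2 scale in both were 8 rows (13.8%, against 3.83% of all features). They are RSM7 (-1.80 and -2.51), MRPL37 (-2.44 and -1.98), MRPS16 (-2.96 and -1.62), MRPL33 (-1.94 and -1.67), MRPS12 (-1.14 and -1.72), MRPL38 (-1.24 and -1.51), MRPS18 (-1.14 and -1.21) and MRPL8, which lies just below -1 in both. All 8 lie above the members' median GC content of 39.7%, from 40.5% for MRPL38 to 52.0% for RSM7. In other single-gene open reading frames the fold changes of the 2 comparisons had rank correlations of 0.17 and 0.23 with length. With GC content these were -0.05 and -0.41. The absence of a shared library does not remove such a dependence. Pearson's r between the 2 comparisons was 0.493 over the 58 rows (Spearman's rho 0.452) and 0.345 over all features (rho 0.359), a description across genes, which are not independent replicates. The 23 large-subunit rows lower in both were MRP7, MRPL1, MRPL6, MRPL8, MRPL9, MRPL10, MRPL11, MRPL13, MRPL16, MRPL19/YNL184C, MRPL20, MRPL23, MRPL28, MRPL32, MRPL33, MRPL35, MRPL37, MRPL38, YML009C-A/MRPL39, MRPL40, MRPL44, MRPL50 and MRPL51. The 14 of the small subunit were MRP1, MRP17, MRP51, MRPS8, MRPS9, MRPS12, MRPS16, MRPS18, MRPS28, MRPS35, RSM7, RSM19, RSM25 and RSM26.

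**Figure D5:**
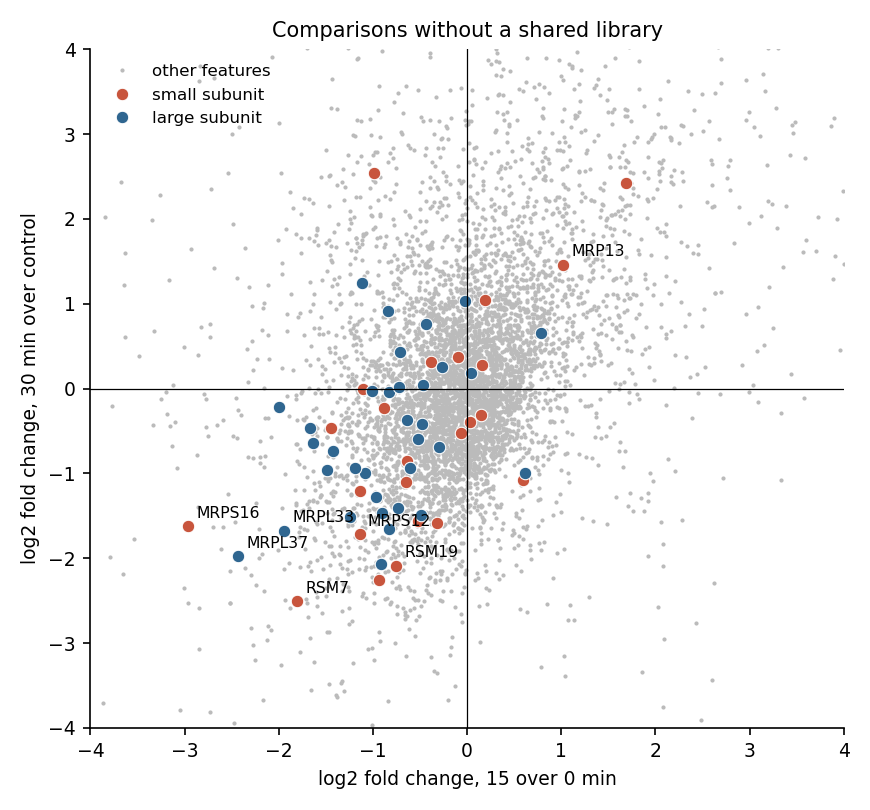
Log2 fold change of 30 min over the control (y axis) against that of 15 over 0 min (x axis) for the 58 member rows, coloured by subunit, and for 5844 of 6133 other features (grey), with 289 others outside the axes. Of the members, 37 lie below 0 on both axes, RSM7 at -1.80 and -2.51 and MRPS16 at -2.96 and -1.62.

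Not every member was lower after anchoring. The values of 11 rows were below 0 at 15 min and above 0 at 30 min over the control, namely MRP20, MRPL3, MRPL7, MRPL17, MRPL22, MRPL27, MRPL31, MRPL36, MRP21, RSM18 and RSM23. The opposite held for MRPL4, MRP4, RSM10 and RSM23/CWC23, and MRPL15, MRPL49, MRP2, MRP13, MRPS5 and RSM24 were above 0 in both. None of these passed the test. MRP13 (YGR084C, mS44), a mitochondria-specific protein of the small subunit, had 22.6 and 45.1 CPM before rapamycin, 80.2 and 57.2 CPM after 15 min, 69.1 and 23.2 CPM after 30 min and 10.5 and 23.1 CPM in control cells. Its 15 min libraries were above all 4 unanchored ones, and its log2 fold change was 1.24 ± 0.40 for anchored over unanchored libraries (SE, edgeR adjusted p = 0.0755). MRP13 passed as a rise in 5 of 21 alternatives, among them DESeq2 and the fits without 30 min replicate 2, 0 min replicate 2 or control replicate 2, with a range of 0.74 to 1.63 and adjusted p of 0.0061 to 0.257 over all 21. MRPL22 (YNL177C, uL22m), whose bacterial homologue lines the exit tunnel for new protein, had 11.8 and 22.3 CPM before rapamycin, 22.6 and 11.1 CPM after 15 min, 27.8 and 30.2 CPM after 30 min and 15.1 and 13.2 CPM in control cells. Both 30 min libraries were the highest, with a log2 fold change of 0.76 ± 0.67 over 0 min (SE, edgeR adjusted p = 0.739).

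MRPL4 (YLR439W, uL29m) differed between the replicates at 15 min, with 93.4 and 54.6 CPM before rapamycin, 162 and 64.9 CPM after 15 min, 57.7 and 43.5 CPM after 30 min and 87.5 and 115 CPM in control cells. It had the smallest p of the members between 30 and 15 min, with a log2 fold change of -1.16 ± 0.42 (SE, edgeR adjusted p = 0.274). MRPL6 (YHR147C, uL6m) had 14.7 and 23.9 CPM before rapamycin, 1.29 and 8.44 CPM after 15 min, 8.91 and 25.5 CPM after 30 min and 19.1 and 20.6 CPM in control cells, so that it was low at 15 min and overlapped the unanchored libraries at 30 min. Its log2 fold change was -1.99 ± 0.91 for 15 over 0 min (SE, edgeR adjusted p = 0.692) and 1.82 ± 0.91 for 30 over 15 min (edgeR adjusted p = 0.506). Of the shared rows, YML009C-A/MRPL39 had 51.9 and 38.0 CPM before rapamycin, 6.2 and 22.9 CPM after 15 min, 24.5 and 33.7 CPM after 30 min and 38.3 and 52.0 CPM in control cells, and its counts cannot be assigned to MRPL39 alone. MRPL19/YNL184C (-0.48 ± 0.46 for 15 over 0 min, edgeR adjusted p = 1) and RSM23/CWC23 (0.59 ± 0.55, edgeR adjusted p = 1) did not pass either, although both 15 min libraries of MRPL19/YNL184C, at 65.4 and 55.7 CPM, were below 101 and 68.1 CPM at 0 min.

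Several members were measured poorly. In 13 of the 58 rows the replicates of at least 1 group differed more than 4-fold, and MRPL37 and MRPS16 are the called members among them. MRPL31 (mL60) had 4.55 and 33.4 CPM at 0 min and 24.7 and 2.58 CPM in the control. MRPL36 (bL31m) had 13.7 and 58.1 CPM before rapamycin, 8.55 and 31.7 CPM after 15 min, 31.7 and 29.4 CPM after 30 min and 20.4 and 12.0 CPM in control cells. RSM18 (bS18m) had 0.506 and 9.94 CPM at 0 min and 9.25 and 0 CPM at 30 min, and 2.93 and 2.33 CPM at 15 min and 1.03 and 0.56 CPM in control cells. MRP2 (uS14m), like RSM18 among the rows with the largest positive fold changes, had 0.0632 and 3.98 CPM before rapamycin, 12.6 and 0.437 CPM after 15 min, 6.17 and 0 CPM after 30 min and 1.14 and 0 CPM in control cells. In each of these rows the replicates of at least 1 group differed more than 4-fold, and the 15 min and 0 min libraries overlapped. MRPS8 (uS8m) and MRPL49 (bL21m) differed more than 4-fold between the control libraries, at 39.4 and 7.28 CPM and at 14.0 and 2.02 CPM. MRPL17 (mL46), with 7.44 and 11.5 CPM in the control against 17.4 and 35.6 CPM at 0 min, had the smallest p of the members for the control over 0 min, at a log2 fold change of -1.48 ± 0.74 (SE, edgeR adjusted p = 1). In the members the median difference between replicates came to 0.45 log2 units before rapamycin, 0.74 after 15 min, 0.79 after 30 min and 0.49 in control cells.

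By their unified names, 40 of the 60 genes code for homologues of bacterial ribosomal proteins and 20 for proteins specific to mitochondria. The homologues (38 rows) had medians of -0.79 for 15 over 0 min, -0.59 for 30 over 0 min and -0.62 against the control, and the mitochondria-specific proteins (20 rows) of -0.68, -0.61 and -0.25. Of the 11 members called in anchored against unanchored libraries, 9 were homologues of bacterial proteins and 2, MRP1 and MRPL37, were specific to mitochondria. The difference between these families was not tested.

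Other genes of mitochondrial translation were measured from 6 lists with 61 genes and 62 tested rows. Their medians were -0.36 for 15 over 0 min (46 of 62 rows below 0), -0.13 for 30 over 0 min and 0.09 for 30 min over the control. For anchored over unanchored libraries the median was -0.17 (40 of 62 rows below 0). With GC content removed, over 58 rows, these 4 medians were -0.27, 0.04, -0.06 and -0.27. In the last, 69% of these rows and 70.9% of the members were below 0, with the members' median at -0.56. With GC content and length removed the medians were -0.28, 0.01, 0.01 and -0.29, and the last shares were 62.1% and 63.6%. RTC6, a further protein of the large subunit, was the only gene of these lists to pass at 30 min over the control, with 79.2 and 50.6 CPM before rapamycin, 19.4 and 27.7 CPM after 15 min, 17.7 and 37.3 CPM after 30 min and 108 and 91.1 CPM in control cells (log2 fold change -1.86 ± 0.46, SE, edgeR adjusted p = 0.0208). RTC6 fell by 1.66 ± 0.32 on the log2 scale in anchored against unanchored libraries (edgeR adjusted p = 0.00441), as did MRM1, a methyltransferase of mitochondrial ribosomal RNA, by 1.17 ± 0.32 (edgeR adjusted p = 0.0361). No row of these lists rose in any comparison. The 6 large-subunit genes of these lists, none of them among the 60 members, had medians of -1.01 for 15 over 0 min and -0.33 for 30 over 0 min, with RML2 at -0.22 ± 0.46 and -1.45 ± 0.48 (SE, edgeR adjusted p = 1 and 0.12). The 7 small-subunit genes of these lists, none of them among the 60 members, had medians of -0.16 and -0.11. RSM27 was at -2.75 ± 1.43 for 15 over 0 min and RSM22 at 0.94 ± 0.61 for 30 over 0 min (SE, edgeR adjusted p = 0.791 and 0.559).

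At 30 min over the control the medians of the other 4 lists were -0.34 for aminoacyl-tRNA synthesis, 0.70 for translation factors, -0.49 for assembly and insertion and 0.84 for translational activators. Above 0 there were 5 of 8 translation factors and 12 of 15 activator rows. Some of these were near 0 CPM in the control, such as RRF1 (0 and 0.56), CBS1 (0 and 0) and PET111 (0.229 and 0.112). The translation factors TUF1 (-0.22), MEF1 (-0.18) and MRF1 (-1.01) were below 0. The 17 genes of mitochondrial aminoacyl-tRNA synthesis had medians of -0.60 for 15 over 0 min and -0.31 for 30 over 0 min, with the threonyl-tRNA synthetase MST1 at -1.30 ± 0.74 for 15 over 0 min and the leucyl-tRNA synthetase NAM2 at -0.57 ± 0.44 for 30 over 0 min (SE, edgeR adjusted p = 0.867 and 0.674). The 8 translation factors had medians of -0.31 and -0.11. MEF1, an elongation factor, was at -0.72 ± 0.39 for 15 over 0 min and MRF1, a release factor, at -0.92 ± 0.58 for 30 over 0 min (SE, edgeR adjusted p = 0.819 and 0.546). The 9 genes of ribosome assembly and protein insertion had medians of -0.34 and -0.19, and OXA1, which inserts new proteins into the inner membrane, was at -0.89 ± 0.34 for 30 over 0 min (SE, edgeR adjusted p = 0.198). The translational activators, 15 rows, had medians of -0.03 and 0.24. PET122, an activator of COX3 mRNA, was at 1.45 ± 0.64 for 30 over 0 min, and the row YER152C/PET122 at -0.62 ± 0.38 for 15 over 0 min (SE, edgeR adjusted p = 0.3 and 0.88).

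The motif downstream of the stop codon was present in all members, so its effect within them cannot be compared. Among other single-gene open reading frames, the 697 with a match had medians of -0.25 for 15 over 0 min, -0.20 for 30 over 0 min and -0.12 for 30 min over the control, against -0.08, -0.10 and -0.02 for the 4156 without one. With GC content removed these medians were -0.13, -0.04 and -0.06 with a match, against 0.03, 0.07 and 0.07 without. The members' medians, at -0.59, -0.47 and -0.42 on that scale, were farther below 0 than those of either class. With GC content and length both removed, the members' medians were -0.47, -0.17 and -0.25. Those of the other genes were then -0.13, -0.03 and -0.08 with a match and 0.03, 0.08 and 0.05 without. By edgeR the 697 genes with a match included 21 falls and 1 rise at 30 over 0 min, and the 4156 without one 108 falls and 21 rises. Members with AATTTT before the start codon (22 rows) had medians of -0.67, -0.48 and -0.45 for the 3 comparisons, and those without it (33 rows) -0.83, -0.69 and -0.59. Whether Puf3 has a part in these differences was not tested.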

How the data were processed

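The authors deposited a table of whole-number read counts per annotated feature for 8 libraries, with no normalisation. Per the labels' protocols, total RNA was freed of ribosomal RNA before stranded dUTP libraries were built with random hexamers. GSNAP, bedtools 2.17.0, HTSeq 0.5.3 and build R64 are listed in the submitters' processing notes, and the counting rule is not given in the sources used here. The labels mention added fission yeast RNA, but 0 features of the table are of that species, so fold changes are relative to the bulk of the RNA. For the library called 30 min replicate 2, the title says 3 where the description says 2, which was used.

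From 7711 rows, 29 exact repeats and 22 rows that repeat a gene's name were dropped, leaving 7660 features. In R 4.3.3 with edgeR 4.0.16, filterByExpr kept 6191, TMM factors were computed, and a robust glmQLFit model of the 8 libraries had 1 mean for each group, 4 residual degrees of freedom and a common dispersion of 0.373. Tests were 2-sided quasi-likelihood tests with Benjamini-Hochberg adjustment over 6191 features, and a feature passed at an adjusted p under 0.05. With 2 libraries a group, exact permutation cannot give a p below 0.33 and was not used. P-values measure the spread between these cultures only. The script was tested on simulated data with a dispersion of 0.05, lower than the 0.373 found here. That test does not show how small a change could be found in these libraries. DESeq2 1.42.0 was an alternative.

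The members and gene lists were chosen with earlier results of these data known. Named are members that passed a test, in each comparison the 4 with the smallest p and the 2 with the largest positive fold change, the highest and lowest per length of each subunit, members in shared rows or below the filter, and of the other lists the called genes and those with the smallest p. Members listed by the sign of their values, MRPL31, and MRPS18 and MRPL8 stand outside this rule and were chosen after their values were seen. Gene coordinates, unified names and sequences are from RefSeq's annotation of R64. TGTANATA was searched on the coding strand, AATTTT on both strands, where matches on opposite strands can overlap.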

Additional observations from a re-analysis of the deposited data

How the results depend on the processing

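The shift of the members kept its sign for 15 over 0 min, 30 over 0 min, 30 min over the control and anchored over unanchored libraries under all 22 alternatives run (21 for the last, which has no fit of its groups alone), but its size and the calls moved. Counts of members called are given in the order 15 over 0 min, 30 over 0 min, 30 min over the control and anchored over unanchored libraries, where the reported counts are 0, 2, 4 and 11. They were 1, 1, 2 and 7 with total counts as library sizes, 0, 1, 2 and 6 with upper-quartile factors, 0, 1, 4 and 5 scaled to mitochondrial genome features, 0, 1, 4 and 8 with RLE factors, 3, 4, 8 and 14 with no low-count filter (1 rise among the 8 and 1 among the 14), 0, 1, 4 and 9 with at least 10 counts in every library, 0, 9, 10 and 17 without the 3 libraries rich in zeros, 2, 2, 6 and 13 with DESeq2 (1 rise among the 13), and 0, 0 and 4 for the first 3 with only the groups compared. Of the settings added after seeing the data, single-gene rows alone gave 0, 1, 4 and 10, GC correction 0, 0, 1 and 3, and GC and length correction 0, 0, 1 and 1. Leaving out 1 library in turn gave 0 to 2, 0 to 8, 2 to 7 and 4 to 13 members, 0 to 3 for 30 over 15 min, and 0 throughout for the control over 0 min.

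The median log2 fold changes, in the same order -0.73, -0.59, -0.56 and -0.56, moved beyond the replicate spread to -0.91 for 15 over 0 min and -0.14 for 30 min over the control with total counts, to -0.36 for 30 min over the control and -0.43 for anchored libraries with upper-quartile factors, and to -0.93, -0.86 and -0.74 for the last 3 with mitochondrial genome features. Scaling moved all features too: their median was -0.24 for 15 over 0 min and 0.43 over the control with total counts, against -0.06 and 0.06 with TMM, and it was -0.39 for 30 over 0 min and -0.24 over the control with mitochondrial genome features. Without the 3 zero-rich libraries the median over the control was -0.79. GC correction moved 15 over 0 min to -0.59, and GC and length correction gave -0.47, -0.17, -0.25 and -0.45. The median for 30 over 15 min, 0.09, became 0.40, -0.43 and 0.30 with total counts, mitochondrial genome features and GC and length correction, and that for the control over 0 min, -0.01, became -0.16 with total counts. Leaving out 1 library gave medians of -0.81 to -0.58, -0.74 to -0.50, -0.78 to -0.25 and -0.80 to -0.55, -0.03 to 0.15 for 30 over 15 min, and -0.16 to 0.13 for the control over 0 min. The cause of these changes was not tested.

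Among the 40 named member results run under the alternatives, the sign reversed in 11 cases, in results that had not passed the test: MRP2 for 15 over 0 min (-1.85 with the replicate block, -2.19 without the 3 zero-rich libraries, -2.14 without 15 min replicate 1), for 30 min over the control (-5.56) and for anchored libraries (-1.94) without 30 min replicate 1, RSM18 over the control without the same library (-6.03), MRPS16 for 30 over 15 min without the 3 libraries (-0.04), and for the control over 0 min MRPL36 without 0 min replicate 2 (0.24) and MRPS8 (-0.04 with the replicate block, -0.90 without the 3 libraries, -0.90 without control replicate 1). Over the fits that left out 1 library, these values spanned -2.14 to 6.42, -5.56 to 8.03 and -1.94 to 4.86 for MRP2 in the order above, -6.03 to 3.5 for RSM18, -1.83 to 0.24 for MRPL36 and -0.90 to 1.65 for MRPS8. RSM7 kept its call over the control and in anchored libraries under every alternative run. Deviations of same-numbered libraries correlated at -0.26 to 0.11, which shows no pairing by number. A weak correlation cannot exclude pairing, because the replicates also differed in their dependence on GC content. With the replicate block the counts were 0, 2, 5 and 12, and with crossed numbers, added after seeing the data, 1, 2, 6 and 13. Only 3 members were too low to test, and 2 libraries a group limit the precision throughout.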
